A study of Gallus gallus with 50 samples.

Results

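Chicken embryos at Hamburger-Hamilton stage 6 (HH6) were sorted by GFP, and the GFP-positive and GFP-negative head cells were compared by RNA sequencing. HH6 is the first of 6 stages in the series. The comparison takes every HH6 library of the authors' filtered table, which gives 6 of the 50 deposited libraries and 6 of the 42 that the filtered table keeps. Of these, 3 are labelled NC_6 (GFP-positive) and 3 WE_6 (GFP-negative), and each GFP-positive library shares a pool name with 1 GFP-negative library. All embryos, of both fractions, had been electroporated whole with ptk-TFAP2AE1-GFP and then kept at 37C outside the egg, with about 20 dissected heads pooled for a sample. The TFAP2AE1 GFP+ cells form the group labelled neural crest, and the GFP- embryonic head cells the group labelled whole embryo. The labels give no genetic background and no sex for the embryos. A cell belongs to the GFP-positive fraction through the reporter alone, so a cell of any type that took up no plasmid was sorted as GFP-negative.

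At HH6 the chick embryo has a neural plate whose lateral edge, the neural plate border, lies between the future nervous system and the future epidermis. The border is known to give rise to the neural crest, a migratory population that later forms much of the facial skeleton, pigment cells and peripheral nerves. TFAP2A is a transcription factor of the border and of early crest, and it is also made in epidermis. The label neural crest at HH6 therefore names cells before crest migration. The deposited tables name genes by Ensembl identifier only, so no marker of border, crest, neural plate, epidermis, mesoderm or endoderm was looked up, and the label was not checked against markers. Genes are given below by identifier or by their position on GRCg6a, with no name and no role.

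The GFP-positive libraries of pools 1, 2 and 3 held 19092835, 18318794 and 18393488 counted reads, and the GFP-negative ones held 16446668, 16471933 and 4869937. The shallow library was that of pool 3, where 11379 genes had 10 or more reads, against 13484 and 13682 in the GFP-negative libraries of pools 1 and 2. Mitochondrial genes took between 4.23% and 7.14% of the reads in the 6 libraries. The series holds another HH6 pool, the fourth, which is not in the filtered table. Its GFP-positive library held 512123 counted reads, and its GFP-negative library 27432044. In that GFP-positive library the 10 most counted genes took 1.26% of reads, against 6.67% and 7.90% in the GFP-positive libraries of pools 2 and 1. In the sorted bulk samples, fewer cells of a type and less RNA per cell cannot be told apart.

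The GFP-positive fraction differed from the GFP-negative fraction in a small share of genes. Of 15737 genes tested, 217 were called, meaning an adjusted p below 0.05 in edgeR's quasi-likelihood test with the pool as a block, which is 1.38% of those tested. Among them 95 genes were higher in GFP-positive cells (0.604%) and 122 were lower (0.775%). An unadjusted p below 0.05 was reached by 1443 genes. Without the pool block the same test called 68 genes (0.432%), 29 of them higher (0.184%) and 39 lower (0.248%). Of the calls made with the block, 27 of the 95 higher and 38 of the 122 lower genes were also called without it.

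The median log2 fold change, GFP-positive over GFP-negative, was 1.41 for the 95 higher genes and -2.03 for the 122 lower genes, against 0.01 for all genes tested. A change of 4-fold or more was seen for 16 of the higher and 62 of the lower genes. The smallest change that was called was 0.51 on the log2 scale among the higher genes and 0.50 among the lower ones. The higher genes had a median level of 96.1 CPM (counts scaled to the size of the library) in GFP-positive cells, against 37.4 CPM in GFP-negative cells. The lower genes had a median of 18.8 CPM in GFP-positive cells, against 56.2 CPM in GFP-negative cells. Over all genes tested the medians were 16.2 CPM in GFP-positive cells and 16.1 CPM in GFP-negative cells. Most called genes were detected in both fractions. The GFP-negative mean was below 1 CPM for 2 of the 95 higher genes, and the GFP-positive mean was below 1 CPM for 11 of the 122 lower genes.

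**Figure D1:**
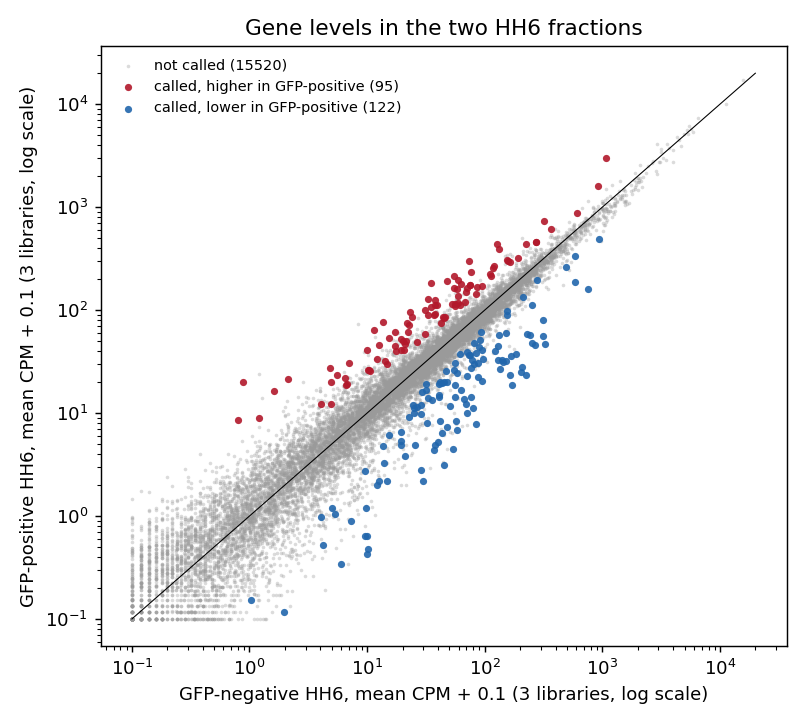
Mean level of every tested gene in the 3 GFP-positive HH6 libraries (vertical axis) against the 3 GFP-negative HH6 libraries (horizontal axis), as CPM + 0.1 on log scales. The 95 genes called higher (red) lie above the line of equal levels and the 122 called lower (blue) below it, with the 15520 other tested genes in grey.

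The called genes were moderately to strongly expressed. By the mean of the higher fraction, 3.23% of the genes at 100 CPM or over were called, against 1.77% of those between 10 and 100 CPM, 0.351% of those between 1 and 10 CPM, and 0.0421% of those below 1 CPM. All 3 GFP-positive libraries lay above all 3 GFP-negative libraries for 88 of the 95 higher genes, an order that 7.40% of all tested genes had. The reverse order was found for 109 of the 122 lower genes and for 5.86% of all tested genes. These orders use the same values as the test and are given as a description.

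Following the rule for named genes, the largest rises and falls were taken among called genes whose mean in the higher fraction reached 10 CPM and whose sign was the same in all 3 pools. The largest rise was that of ENSGALG00000016680, a gene of 7 exons at chr3:108221189-108246601 on the minus strand. It had 7.19, 4.72 and 47.98 CPM in the GFP-positive libraries of pools 1, 2 and 3, against 1.39, 0.242 and 0.711 CPM in the GFP-negative libraries of the same pools. The GFP-positive library of pool 3 was the high one, and the groups did not overlap over these pools. In reads, the GFP-positive libraries held 138, 87 and 859, against 23, 4 and 3 in the GFP-negative ones. In the fourth pool the order was reversed, with 0 CPM in GFP-positive cells and 12.7 CPM in GFP-negative cells. The GFP-positive library of that pool held only 512123 reads in all. The log2 fold change over the first 3 pools was 3.81 ± 0.68 (SE of the fit; edgeR, adjusted p = 0.00623). The log2 CPM differences within pools 1, 2 and 3 were 2.28, 3.76 and 5.86. Another annotated gene overlaps it on the opposite strand. Its level in GFP-positive cells was higher at later stages, with means of 73.8 ± 16.9 CPM at HH8 (SD, n = 3) and 282 ± 67.9 CPM at HH12 (SD, n = 4), against 4.602 ± 1.29 and 25.8 ± 10.1 CPM in GFP-negative cells at those stages.

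The next rise was that of ENSGALG00000031010, which has 2 exons and lies at chr1:106522741-106524533 on the plus strand. Its levels in pools 1, 2 and 3 were 8.71, 14.1 and 40.99 CPM in GFP-positive cells, against 1.57, 3.62 and 0.948 CPM in GFP-negative cells. Here too pool 3 gave the widest gap, and the groups did not overlap. In reads, the GFP-negative libraries of pools 1, 2 and 3 held 26, 60 and 4 for this gene. Its log2 fold change was 2.98 ± 0.68 (SE; edgeR, adjusted p = 0.0297), and the adjusted p without the block was 0.123. At none of the 5 later stages was it called with the block. Its GFP-positive means there ran between 6.05 and 50.1 CPM, and the log2 fold change at HH16 was -0.66 ± 0.49 (SE).

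The largest fall by the rule was that of ENSGALG00000041074, at chr3:4291347-4299319 on the plus strand. Its exons sum to 204 bases and it overlaps 2 other annotated genes on the same strand, so that reads of the shared sequence could have been left uncounted. It had 0.209, 0.651 and 0.279 CPM in the GFP-positive libraries of pools 1, 2 and 3, against 9.28, 14.8 and 6.40 CPM in the GFP-negative ones. In reads, the GFP-positive libraries held 4, 12 and 5, against 154, 245 and 27 in the GFP-negative ones. On the log2 scale the difference was -4.78 ± 1.04 (SE; edgeR, adjusted p = 0.0262), and the adjusted p without the block was 0.125.

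ENSGALG00000023296, a gene of 5 exons at chr8:22260965-22269319 on the minus strand, was the next fall. It had 1.77, 5.64 and 16.0 CPM in GFP-positive cells of pools 1, 2 and 3, against 40.97, 80.6 and 133 CPM in GFP-negative cells. Both fractions were lowest in pool 1 and highest in pool 3, and the difference within each pool was negative. On the log2 scale its difference was -3.77 ± 0.80 (SE; edgeR, adjusted p = 0.0191), and the adjusted p without the block was 0.189. At HH8 its log2 fold change was -4.596 ± 0.83 (SE, adjusted p = 0.00236).

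**Figure D2:**
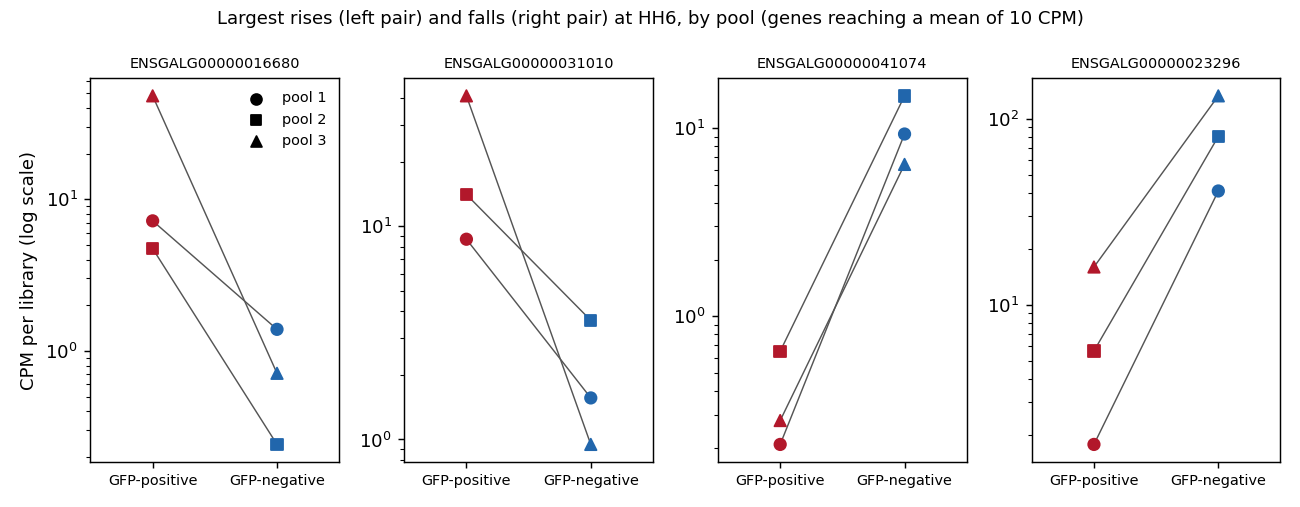
CPM per library on a log scale for the 2 largest rises (left pair) and the 2 largest falls (right pair) at HH6 among called genes that reached a mean of 10 CPM in the higher fraction, with the GFP-positive library left of the GFP-negative library of the same pool and a line joining the pair. Each of the 12 lines runs in the direction of its gene's call, and the vertical scales differ between panels.

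All of these calls were lost when 1 pool of embryos was left out, in at least 1 of the 3 cases. Without pool 3 the log2 fold change of ENSGALG00000016680 was 3.001 (adjusted p = 0.102), while it was called without pool 1 or pool 2. The calls of ENSGALG00000031010, ENSGALG00000041074 and ENSGALG00000023296 were lost whichever pool was left out, with adjusted p between 0.0713 and 0.324. In the fourth pool these genes kept their sign, while that of ENSGALG00000016680 was reversed. Over all tested genes, 66 were called without pool 1, 87 without pool 2 and 69 without pool 3, each from 2 pools at HH6.

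A smaller set of calls held under each of 12 alternatives on the libraries of the filtered table, which were other tools, filters, scalings and fits, and leaving out each pool. It contained 5 of the 95 higher and 15 of the 122 lower genes. These genes were chosen after their values were seen, and they are given by position. The widest of the 5 rises was at chr28:3303239-3316252 (15 exons), with 144, 214 and 221 CPM in GFP-positive cells of pools 1, 2 and 3, against 46.9, 69.3 and 25.6 CPM in GFP-negative cells. Its log2 fold change was 2.09 ± 0.33 (SE; edgeR, adjusted p = 0.00278). A gene of 34 exons at chr7:27172896-27356465 had 162, 163 and 312 CPM in GFP-positive cells, against 64.8, 44.7 and 54.3 CPM in GFP-negative cells. The most abundant of the 5 was the gene of 3 exons at chr4:20063168-20067413, with 516, 401 and 407 CPM in GFP-positive cells, against 148, 116 and 117 CPM in GFP-negative cells. In each of these genes the lowest GFP-positive library stood well above the highest GFP-negative one.

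The remaining pair of such rises spanned different levels. A gene at chr2:4091972-4099771 averaged 234 ± 49.3 CPM in GFP-positive cells and 76.8 ± 18.4 CPM in GFP-negative cells (SD, n = 3 each). The gene at chr9:23132124-23185052 varied least, with 113, 113 and 109 CPM in GFP-positive cells of pools 1, 2 and 3, against 41.8, 41.8 and 28.7 CPM in GFP-negative cells. Its log2 fold change was 1.59 ± 0.22 (SE; edgeR, adjusted p = 0.00115). All 5 were called higher again at HH8, as were 72 of the 95 higher genes and 1.63% of all tested genes. Their log2 fold changes there lay between 1.54 and 1.81. The HH8 libraries were in most of the fits that chose these genes, so this is a description. In the fourth HH6 pool the sign of all 5 was reversed, with log2 CPM differences between -5.998 and -0.41. The median log2 CPM difference of all tested genes in that pool was -0.74.

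Among the 15 falls of this kind the widest was at Z:36034182-36052126 (13 exons), with 1.15, 0.380 and 0.112 CPM in GFP-positive cells, against 11.6, 6.88 and 11.4 CPM in GFP-negative cells. Its difference was -4.36 ± 0.56 on the log2 scale (SE; edgeR, adjusted p = 0.000467). A gene of 3 exons at chr2:29565482-29567600 had 2.19, 2.17 and 1.899 CPM in GFP-positive cells, against 46.8, 25.7 and 16.3 CPM in GFP-negative cells. The most abundant was the gene of 22 exons at chr9:16088106-16096383, with 179, 150 and 154 CPM in GFP-positive cells, against 941, 713 and 620 CPM in GFP-negative cells. Its log2 fold change was -2.22 ± 0.35 (SE; edgeR, adjusted p = 0.00275). At chr4:57785050-57798938 the GFP-negative level varied over pools, with 348, 188 and 75.8 CPM, while the GFP-positive level was 20.8, 34.2 and 19.6 CPM. The smallest fall of the 15 was at chr1:33560543-33701007, where the log2 fold change was -1.45 ± 0.20 (SE; edgeR, adjusted p = 0.000787). All 15 kept their sign in the fourth pool, where the median log2 CPM difference of all tested genes was also negative, at -0.74.

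The HH6 pools were sequenced in different sets, each of which also held other stages, and both libraries of a pool shared a set, so that the difference within a pool is also the difference within a sequencing set. The median log2 CPM difference of the 95 higher genes was 1.29 in pool 1, 1.22 in pool 2 and 1.80 in pool 3. For the 122 lower genes the medians were -1.85, -1.67 and -1.79. All 95 and all 122 had their sign in each of the 3 pools, as did 18.4% of all tested genes in the positive and 16.4% in the negative direction. These pools chose the genes, so this is a description. Over all genes tested, the differences of pools 1 and 2 correlated with a Pearson's r of 0.430, pools 1 and 3 with 0.264, and pools 2 and 3 with 0.232. These are correlations across 15737 genes, which are not independent replicates, and pool 3 holds the shallow GFP-negative library.

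The fourth pool took no part in choosing the genes. There the 122 lower genes were lower in GFP-positive cells in 103 cases (84.4%), with a median log2 CPM difference of -1.61. Of all tested genes 59.3% were lower in that pool, with a median of -0.74. The 95 higher genes did not go the same way. Only 22 of them were higher in the GFP-positive library of the fourth pool (23.2%), against 39.5% of all tested genes, and their median difference was -1.16. The GFP-positive library of that pool held 512123 reads and differed from the other GFP-positive HH6 libraries in composition, as given above. Both sets of called genes had higher median levels than all tested genes, and no genes of matched level were compared. The 84.4% is therefore no independent check of the lower genes. The part of depth and composition in these values was not tested. Across genes the fourth pool's differences correlated with those of pools 1, 2 and 3 at 0.0534, 0.0750 and 0.0864. With all 50 libraries in the fit, this pool included, 2 genes were called at HH6, both lower in GFP-positive cells and both among the 122.

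**Figure D3:**
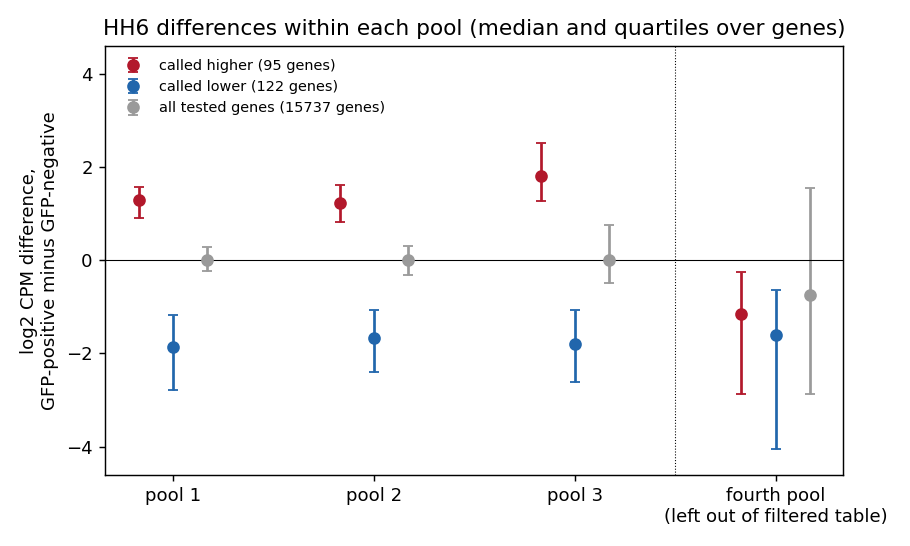
Median log2 CPM difference, GFP-positive minus GFP-negative, within each HH6 pool for the 95 higher genes (red), the 122 lower genes (blue) and all tested genes (grey), with bars from the lower to the upper quartile over genes. In pools 1 to 3 the red and blue medians stand on opposite sides of 0, and in the fourth pool, right of the dotted line, the medians of both lie below 0 at -1.16 and -1.61.

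The higher genes had a median of 12 exons and 3448 bases of exon, against 7 exons and 2644 bases for the lower genes and 8 exons and 2290 bases for all genes tested. The median span on the chromosome was 19.9 kb for the higher genes and 20.6 kb for the lower genes, against 12.5 kb for all genes tested. Of the 6099 tested genes with more than 10 exons, 56 were higher (0.918%) and 46 were lower (0.754%). Of the 3908 tested genes that span under 5 kb, 13 were higher (0.333%) and 21 were lower (0.537%). Over all tested genes the shares were 0.604% and 0.775%. The median log2 fold change was 0.08 in the first set and -0.08 in the second, and no test of these sets was made. Genes of higher level and greater length have more reads, and the part of that in these counts was not tested.

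The calls were spread over the chromosomes. Chromosome Z had 703 tested genes, of which 5 were called lower in GFP-positive cells (0.711%, against 0.775% of all tested genes). Chromosome 7 had 6 genes called higher among 513 tested (1.17%, against 0.604% of all tested genes). Chromosome 21 had 6 genes higher and 1 lower among 252 tested (2.38% higher and 0.397% lower). Chromosome 2 had 6 genes higher and 14 lower among 1323 tested (0.454% higher and 1.06% lower). No difference between chromosomes was tested.

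Of the 6 rises on chromosome 21, 3 stood side by side. Runs of neighbouring tested genes called in the same direction numbered 3 for rises, holding 7 genes, and 2 for falls, holding 4 genes. The longest run had 3 genes within 19.4 kb at chr21:1417763-1437201, each with 3 exons. Its first gene, on the minus strand at 1417763 to 1419447, had 80.9, 18.6 and 90.8 CPM in GFP-positive cells of pools 1, 2 and 3, against 16.4, 4.41 and 13.5 CPM in GFP-negative cells. The second, on the plus strand at 1428855 to 1430757, had 11.2, 1.74 and 13.4 CPM in GFP-positive cells, against 2.29, 0.785 and 0.237 CPM in GFP-negative cells. The third, on the plus strand at 1435552 to 1437201, had 218, 90.1 and 237 CPM in GFP-positive cells, against 42.7, 11.4 and 49.997 CPM in GFP-negative cells. In all 3 genes pool 2 gave the lowest GFP-positive level, while the difference was positive within every pool. Their log2 fold changes were between 2.37 and 2.52, with adjusted p between 0.0138 and 0.0191 in edgeR with the block. None of the 3 was called without the block, where the adjusted p lay between 0.158 and 0.439. Reads that near-identical neighbouring genes share were not counted, and whether these genes are near-identical was not tested.

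The other runs were pairs. A gene of 17 exons at chr22:2646153-2661037 had a mean of 618 ± 65.4 CPM in GFP-positive cells and 367 ± 59.4 CPM in GFP-negative cells (SD, n = 3 each), and its neighbour at chr22:2694182-2712580 had 18.7 ± 3.39 CPM in GFP-positive cells and 6.47 ± 2.87 CPM in GFP-negative cells. On chromosome 3 the adjacent genes at 30424069 to 30439118 and 30442438 to 30454580 rose by 1.02 ± 0.17 and 0.77 ± 0.15 on the log2 scale (SE). Both pairs of rises were lost without the block. On chromosome 11 the genes at 3706912 to 3741657 and 3876357 to 3878622 had log2 fold changes of -2.86 ± 0.48 and -2.95 ± 0.53 (SE), with adjusted p of 0.00397 and 0.00693 in edgeR. The first of them was also called without the block and the second was not. On chromosome 18 the gene at 5945780 to 5973025 had the smallest change of all called genes, -0.50 ± 0.12 (SE), and it was lost without the block (adjusted p = 0.299 in edgeR). It lies beside a fall of -2.04 ± 0.32 (SE) at 6008187 to 6014208.

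The HH6 differences were then followed to later stages. The later libraries were in the same fit, where they entered the filter on low counts and the estimate of each gene's spread, so the later calls are not independent of the choice of genes. With the 6 HH6 libraries alone and the block, 223 genes were called, of which 121 were among the 217. At HH8, the next stage, 72 of the 95 higher genes were again called higher and 110 of the 122 lower genes again called lower. Of all tested genes 1.63% were called higher and 3.07% lower at HH8. The 72 genes make up 75.8% of the HH6 rises and 28.02% of the HH8 rises, and the 110 genes make up 90.2% of the HH6 falls and 22.8% of the HH8 falls. The sign was kept by 94 of the 95 and by all 122, and the median log2 fold changes at HH8 were 1.27 and -2.25. Without the block, 25 of 29 higher and 37 of 39 lower genes were called again at HH8, where 0.674% and 1.72% of all tested genes were called. The HH8 pools were sequenced in the same sets as the HH6 pools, while each later stage lay in part in other sets. Recurrence by nearness of stage and by shared sequencing set therefore cannot be told apart.

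After HH8 fewer of the HH6 calls recurred. At HH10, 7 of the 95 higher genes (0.470% of all tested genes were higher) and 40 of the 122 lower genes (0.712% lower) were called with the HH6 sign. At HH12 the counts were 16 of 95 (0.934%) and 61 of 122 (2.02%), and at HH14 they were 8 of 95 (0.184%) and 54 of 122 (1.16%). At HH16 they were 4 of 95 (0.254%) and 12 of 122 (0.712%). The difference between rises and falls in how often they recurred was not tested. The median log2 fold change of the higher genes was 0.69 at HH10, 0.53 at HH12, 0.40 at HH14 and -0.13 at HH16, against 0.11, 0.01, -0.03 and -0.07 for all tested genes. For the lower genes it was -1.48, -1.38, -1.18 and -0.26. The HH6 medians come from the values that chose these genes, and the number of sorted pairs differed between stages, with 2 at HH10, 3 at HH6, HH8, HH12 and HH14, and 5 at HH16. A pair at HH10 and a pair at HH16 had their fractions in different sequencing sets.

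**Figure D4:**
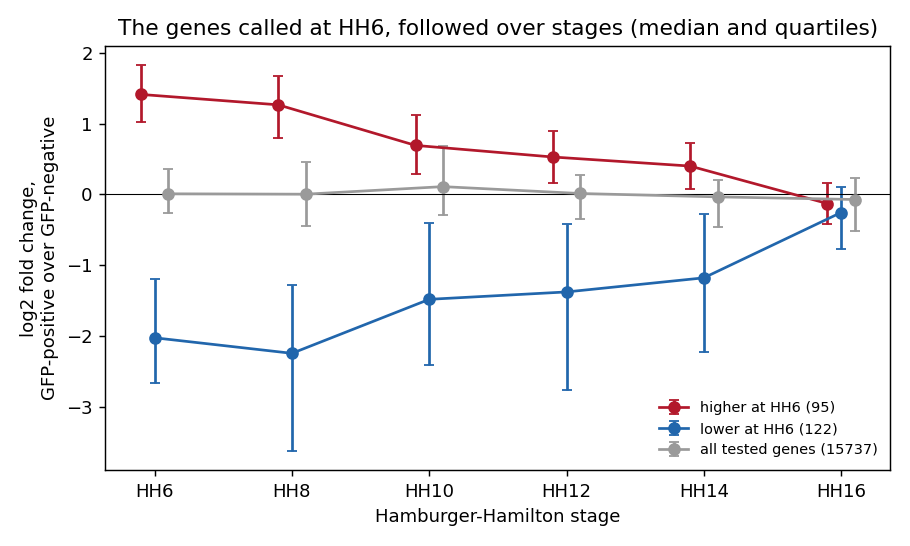
Median log2 fold change, GFP-positive over GFP-negative, at each stage for the 95 genes called higher at HH6 (red), the 122 called lower (blue) and all 15737 tested genes (grey), with bars from the lower to the upper quartile over genes. The red medians are 1.41 at HH6, 1.27 at HH8 and -0.13 at HH16, and the blue medians are -2.03, -2.25 and -0.26 at those stages.

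Some genes kept their HH6 difference throughout. Calls of the HH6 sign at every one of the 5 later stages were made for 3 of the higher and 6 of the lower genes. Of all tested genes, no more than 0.184% can be called higher at every later stage, the share called higher at HH14. For lower calls the limit is 0.712%, the share at HH10 and at HH16. No later call of the HH6 sign was made for 22 of the higher and 12 of the lower genes, some of which were called in the opposite direction. The steadiest of the rises was a gene of 12 exons at chr3:56993933-57046070, with 105, 77.2 and 84.7 CPM in GFP-positive cells of the HH6 pools, against 27.8, 34.8 and 35.1 CPM in GFP-negative cells. Its log2 fold change was 1.45 ± 0.23 at HH6, 1.84 ± 0.23 at HH8 and 1.18 ± 0.17 at HH16 (SE). The gene of 8 exons at chr17:7899618-7927026 had 250, 239 and 311 CPM in GFP-positive cells at HH6, against 145, 102 and 110 CPM in GFP-negative cells. Its difference was 1.17 ± 0.21 at HH6, 1.97 ± 0.21 at HH8 and 0.74 ± 0.16 at HH16 on the log2 scale (SE). The HH6 call of the first was lost without pool 1 (adjusted p = 0.0541 in edgeR), and that of the second without pool 2 or pool 3 (0.0640 and 0.109). Without the block the first was not called at HH14 (adjusted p = 0.0942 in edgeR). The second was then called neither at HH14 nor at HH16 (0.0896 and 0.0750).

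The third such rise, a gene of 4 exons at chr8:28132665-28133855, varied most. It had 28.8, 43.3 and 159 CPM in GFP-positive cells of the HH6 pools, against 11.1, 20.3 and 9.48 CPM in GFP-negative cells. At HH6 it rose by 2.05 ± 0.50 on the log2 scale (SE; edgeR, adjusted p = 0.0473), and it was not called without the block (adjusted p = 0.111). Its HH6 call was also lost whichever pool was left out, with adjusted p between 0.064 and 0.53 in edgeR. The gene lost this call in 10 of 13 alternatives. At HH8 it averaged 227 ± 117 CPM in GFP-positive cells and 18.5 ± 8.11 CPM in GFP-negative cells (SD, n = 3 each).

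Among the 6 lasting falls, the gene of 30 exons at chr4:65185439-65213106 had 11.5, 42.6 and 16.7 CPM in GFP-positive cells of the HH6 pools, against 232, 292 and 146 CPM in GFP-negative cells. The gene of 4 exons at chr5:18658103-18665579 had 10.9, 10.96 and 34.2 CPM in GFP-positive cells, against 153, 139 and 224 CPM in GFP-negative cells. Both genes fell by 3.402 ± 0.42 and 3.39 ± 0.41 on the log2 scale (SE; edgeR, adjusted p = 0.000379 and 0.000342). A gene at chr2:14902023-14928738 had 41.03, 45.8 and 25.8 CPM in GFP-positive cells, against 136, 236 and 177 CPM in GFP-negative cells. At chr28:3528771-3530950 the GFP-negative level grew with stage, with 9.74 ± 6.21 CPM at HH6 (SD, n = 3) and 199 ± 95.7 CPM at HH16 (SD, n = 5), while the GFP-positive level was 1.11 ± 1.32 CPM at HH6 and 42.1 ± 13.1 CPM at HH16. Its HH6 call was lost in 6 of 13 alternatives. These included the fit without the block (adjusted p = 0.186 in edgeR), limma voom (0.288) and leaving out pool 2 (0.135). Without the block it was not called at HH16 either (adjusted p = 0.138 in edgeR). The lasting fall at chr1:112117781-112133306 lost its HH6 call in 9 of 13 alternatives. The one at chr18:2045332-2093589 was not called at HH14 without the block (adjusted p = 0.0516 in edgeR).

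A few genes were called in the opposite direction at a later stage, 3 of the higher and 7 of the lower ones. At a single later stage, 0.712% to 3.07% of all tested genes were called lower and 0.184% to 1.63% higher. The share called at any later stage was not counted, so the 3 and the 7 have no matching background. The gene of 22 exons at chr24:1595777-1613311 was higher in GFP-positive cells at HH6, with 194, 173 and 139 CPM, against 94.4, 98.5 and 67.3 CPM in GFP-negative cells. Its GFP-positive level was 43.3 ± 9.61 CPM at HH10, against 90.2 ± 11.3 CPM in GFP-negative cells (SD, n = 3 each). The log2 fold change was 0.97 ± 0.18 at HH6 and -1.01 ± 0.22 at HH10 (SE; edgeR, adjusted p = 0.00739 and 0.0291), and neither was called without the block (adjusted p = 0.161 and 0.0618). The gene at chr1:114074141-114163628 had the lower level in GFP-positive cells at HH6, with 11.3, 11.8 and 12.5 CPM, against 26.9, 25.5 and 21.3 CPM in GFP-negative cells. Its GFP-positive mean was 31.5 ± 0.719 CPM at HH10 and 52.4 ± 4.44 CPM at HH12, against 17.9 ± 7.29 and 25.1 ± 3.85 CPM in GFP-negative cells (SD, n = 3 and 4). Without the block it was called neither at HH6 nor at HH10 (adjusted p = 0.123 and 0.196 in edgeR), but it was at HH12 (0.0170). At Z:42432329-42437371 the GFP-positive level was 15.1, 32.9 and 19.4 CPM at HH6, against 38.2, 128 and 95.0 CPM in GFP-negative cells. The log2 fold change there was -1.86 ± 0.39 at HH6 and 1.67 ± 0.40 at HH12 (SE; edgeR, adjusted p = 0.0179 and 0.0262), and at HH6 the adjusted p without the block was 0.0633.

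Whether the fraction difference at HH6 departs from that at other stages was tested directly. Between HH8 and HH6 a change of the difference was called for 0 of 15737 genes in edgeR (0%). There 443 genes had an unadjusted p below 0.05. With limma voom 0 genes were called, and with DESeq2 11. Against the mean of the 5 later stages, 30 genes were called (0.191%). In 20 of them (0.127%) the HH6 difference was above the later mean and in 10 (0.0635%) it was below. Without the block 0 genes were called in edgeR, with 782 at an unadjusted p below 0.05.

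Most departures above the later mean were of genes that were not called at HH6 and had lower levels in GFP-positive cells later. Of the 20, 6 were called higher at HH6 and none lower, and in 19 the mean later log2 fold change was negative. The largest, ENSGALG00000006775, lies at chr20:10367592-10377566 and had 36.3, 35.8 and 21.4 CPM in GFP-positive cells of the HH6 pools, against 20.0, 48.6 and 14.5 CPM in GFP-negative cells. The groups overlapped at HH6. At HH10 it had 4.55 ± 1.99 CPM in GFP-positive cells, against 34.2 ± 10.9 CPM in GFP-negative cells (SD, n = 3 each). The HH6 difference exceeded the later mean by 2.85 ± 0.46 on the log2 scale (SE; edgeR, adjusted p = 0.0152). ENSGALG00000005802, at chr13:14053033-14099309, had 24.7, 45.3 and 25.4 CPM in GFP-positive cells, against 43.9, 50.001 and 33.9 CPM in GFP-negative cells at HH6. In GFP-negative cells it averaged 101 ± 20.3 CPM at HH8 and 178 ± 52.8 CPM at HH12, while in GFP-positive cells it averaged 20.2 ± 5.85 and 21.3 ± 14.1 CPM (SD, n = 3 and 4). Its HH6 difference exceeded the later mean by 2.49 ± 0.48 (SE; edgeR, adjusted p = 0.0383).

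Of the 10 departures below the later mean, 7 were called lower in GFP-positive cells at HH6. The largest was that of ENSGALG00000027213, at chr1:41898277-41919541, with 6.57, 1.41 and 1.17 CPM in GFP-positive cells of the HH6 pools, against 114, 14.3 and 6.87 CPM in GFP-negative cells. The GFP-negative level in pool 1 was far above the others. Its HH6 difference lay below the later mean by a log2 value of -3.30 ± 0.66 (SE; edgeR, adjusted p = 0.0488). The gap was also present at HH8, where the log2 fold change was -3.15 ± 0.61 (SE), and at HH10 it was 0.12 ± 0.83 (SE). ENSGALG00000006473 covers 447440 bases at chr1:2887148-3334587 and had 3.39, 5.37 and 9.10 CPM in GFP-positive cells at HH6, against 10.9, 15.5 and 21.6 CPM in GFP-negative cells. At HH12 it had 57.0 ± 18.7 CPM in GFP-positive cells and 12.6 ± 3.62 CPM in GFP-negative cells (SD, n = 4 each). Its departure from the later mean was -2.88 ± 0.53 on the log2 scale (SE; edgeR, adjusted p = 0.0339), but it was not called at HH6 (adjusted p = 0.187). Both genes overlap other annotated genes on the same strand.

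**Figure D5:**
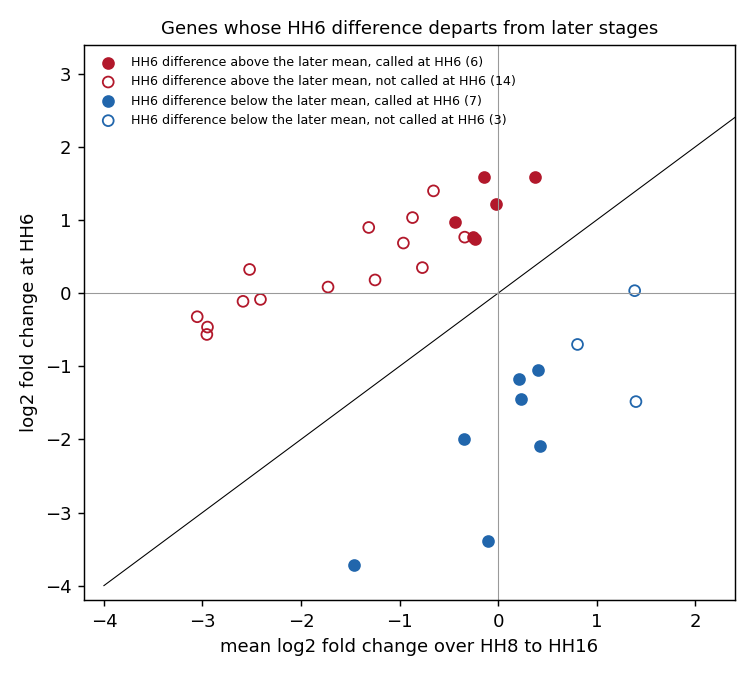
Log2 fold change at HH6 (vertical axis) against the mean log2 fold change over HH8 to HH16 (horizontal axis), GFP-positive over GFP-negative, for the 30 genes whose HH6 difference departed from the later mean, with filled points for genes called at HH6. The 20 red points lie above the line of equal values and 6 of them are filled, while 7 of the 10 blue points below the line are filled.

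These departures rested on few pools. Leaving out pool 1, 2 or 3 at HH6 gave 2, 9 and 7 such calls, of which 2, 8 and 6 were among the 30, and with all 50 libraries there were 0. In the fourth HH6 pool the log2 CPM difference was -0.98 for ENSGALG00000006775 and -1.88 for ENSGALG00000005802. It was 0.92 for ENSGALG00000027213 and 0.32 for ENSGALG00000006473. Each of these signs is opposite to that of the gene's departure. The GFP-positive library of that pool held 512123 reads, and the median difference of all tested genes there was -0.74.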

How the data were processed

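Polyadenylated RNA of sorted cells was sequenced with a stranded kit, per the labels' protocols. Reads were handled with bcl2fastq, cutadapt 2.10, HISAT2 2.1.0 and SAMtools 1.9, per the submitters' processing notes. The authors deposited raw counts of reads for each gene, made by featureCounts 1.6.2 with reverse-stranded counting on the Ensembl release 99 annotation of GRCg6a, per the file headers. By the command shown there, a read with several alignments or within several genes was not counted. The filtered table holds 42 of 50 libraries, and all columns were matched to samples by name.

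The members, gene lists and tests were chosen with earlier results of these data known. filterByExpr by group left 15737 of 24356 genes. Counts were scaled by TMM and tested with edgeR 4.0.16 in R 4.3.3 (quasi-likelihood, robust), with all 42 libraries and 12 groups in one fit, the pool as a block and a fraction difference for each stage. P-values were adjusted by Benjamini-Hochberg over all genes tested, at a threshold of 0.05, and log2 differences within a pool used a prior count of 2. CPM were computed from the counts and the TMM library sizes. Each SE of a log2 fold change is its absolute value divided by the square root of the test's F statistic. It rests on the spread estimated from all 42 libraries and is not the spread over the pools of a stage. The script was also run on counts simulated from its own fit, which checks the code and not the calls in these data.

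The pool name in the title pairs the fractions. Libraries of the same pool deviated together from their HH6 group means (r = 0.412, 0.285 and 0.183), against -0.250 to -0.0206 for other pairs. The deviations within a group cancel out, so the negative values of other pairs follow in part from the positive ones. Each HH6 pair also shares a sequencing set, so shared embryos and shared sequencing cannot be told apart there. The labels name no source beyond the pool, so that p-values cover no more than the spread between libraries. No 2 libraries of an HH6 group agreed within sampling noise (chi-square per degree of freedom 31.0 to 93.4).

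The rule for named genes asked for symbols. The reference table, on another assembly, has 25635 rows and 0 Ensembl identifiers, so 0 of 24356 identifiers were matched. The gene lists and cell type markers were therefore not tested, the largest 2 rises and 2 falls are given by identifier, and other genes were chosen after their values were seen and are given by position. No sequence is shown, since no genome or sequence table was used here.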

Additional observations from a re-analysis of the deposited data

Results flagged for a closer look

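In the GFP-negative HH16 libraries, 1 of 5 stood apart for ENSGALG00000023296, at 216 CPM against 41.8 CPM in the next highest. At HH6 this gene had the second largest fall among called genes that reached a mean of 10 CPM in the higher fraction and kept their sign in all 3 pools, and there all 3 GFP-negative libraries were above all 3 GFP-positive ones. Of 32 combinations of a gene and a group, from 8 genes and 4 groups of 4 or more libraries, 1 was flagged. Chance flags about 1 in 20.

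The difference between fractions at HH6 departed from the mean of the 5 later stages for 4 named genes, by the test of that difference in edgeR. These genes were named because they had the largest departures called in that same test. Their flag therefore followed from the choice and is given as a description. The departure was 2.85 for ENSGALG00000006775, 2.49 for ENSGALG00000005802, -3.30 for ENSGALG00000027213 and -2.88 for ENSGALG00000006473, on the log2 scale.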

How the results depend on the processing

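At HH6 the 217 calls became 68 without the replicate block, 563 with DESeq2 1.42.0, 2 with all 50 libraries and 142 after dropping the 3 libraries where fewest genes were detected, of which the GFP-negative library of pool 3 is 1. With the 6 HH6 libraries alone and no replicate block 75 were called. Leaving out each pool in turn gave 66 to 87. The other alternatives gave between 165 and 266. The 30 departures from the later mean became 0 without the replicate block, 293 with DESeq2, 69 with limma voom 3.58.1, 0 with all 50 libraries, 13 after dropping those 3 libraries, and 2 to 9 without 1 pool. The change between HH8 and HH6 was called for 11 genes with DESeq2 and for 0 under every other alternative run. The cause was not tested, beyond the fewer pairs left when a pool is removed.

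Of 28 genes followed over the alternatives, 1 changed sign, and only with all 50 libraries: the gene at chr22:2646153-2661037 then had a log2 fold change of -0.10. None of the 28 lost its call under DESeq2, DESeq2-type size factors or a filter of 1 CPM in 3 libraries. Without the block 19 of 28 lost theirs, and with all 50 libraries the 27 that kept their sign did. At 4869937 reads, the GFP-negative library of pool 3 limits what can be seen of low genes, and a p above the threshold does not show equal levels.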
